A study of Mus musculus with 10 samples.

Results

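DNA replication machinery genes are the genes whose products recognise and license replication origins, form and start the helicase, copy the DNA and supply its nucleotides. The group was defined by a fixed list of 52 gene symbols, set out in 11 functional steps, and all 52 were found among the 24544 genes of the count table; all 52 also passed the filter on low counts and were tested among 12203 genes. They were read in 10 bulk RNA-seq libraries of long-term hematopoietic stem cells (LT-HSCs), the bone marrow cells that rebuild blood over the long term. The mice were Hoxb5-mCherry reporter animals, in which mCherry marks cells expressing Hoxb5, and were 2 to 3 months old in every library. Both fractions were Hoxb5+ and CD150+, carried SCA1 and cKIT, and lacked CD34, CD48, FLK2 and lineage markers. The 5 libraries of one fraction were sorted as NEO1+ and the 5 of the other as NEO1-, where NEO1 is the surface receptor neogenin-1. Each library held RNA of 250 to 500 cells pooled from 2 mice, and whether both fractions came from the same mice was not stated, so the p-values measure the spread between these libraries only. The study asks whether NEO1 separates Hoxb5+ stem cells into functionally different fractions, and the comparison here is of their replication genes.

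Cells license replication in G1, when the origin recognition complex, CDC6 and CDT1 load the MCM2 to MCM7 helicase onto origins. In S phase the kinases CDC7-DBF4 and CDK let CDC45 and the GINS complex join the MCM ring, and polymerases alpha, delta and epsilon then copy the strands with the sliding clamp PCNA. Many of these genes are transcribed under E2F transcription factors late in G1, and resting LT-HSCs are known for a low rate of division. In bulk RNA, fewer cells in cycle and less RNA of these genes per cell cannot be told apart.

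As a group, the replication genes stood at higher levels in NEO1+ than in NEO1- libraries, although no single member passed the edgeR test over all genes. The median log2 fold change (NEO1+ over NEO1-) was 0.47 over the 52 members and 0.01 over all 12203 genes tested, and 45 of 52 members (86.5%) had a value above 0, against 51% of all genes. With the edgeR quasi-likelihood test and Benjamini-Hochberg adjustment over all genes, 0 of 52 members and 0% of all genes passed 0.05. At an unadjusted edgeR p under 0.05, 14 members (26.9%) were higher in NEO1+ against 3.11% of all genes, and 0 were lower against 3.49%. DESeq2 on the same counts called 3 members higher after adjustment (5.77%), against 0.557% of all genes, and 0 lower against 0.426%; the 3 were Mcm4, Pold1 and Tk1. With the library number as a block, DESeq2 called 12 members higher (23.1%) against 4.28% of all genes, and 0 lower against 1.42%. Whether the numbers pair the libraries was not stated. In 6 members (11.5%) every NEO1+ library lay above every NEO1- library, against 1.35% of all genes, and in 0 members did every NEO1+ library lie below, against 1.13%. The 6 were Mcm3, Mcm4, Mcm10, Pold1, Rfc4 and Tk1. These counts describe a list that was chosen with earlier results known, and no test of the list as a set was made.

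Nucleotide supply had the highest median log2 fold change, at 1.12 over 5 members, followed by helicase activation at 0.87 over 8. Polymerases delta and epsilon came next at 0.72 over 5, then the licensing factors at 0.71 over 3. The licensing median was the value of Gmnn, whose product inhibits CDT1, with Cdt1 at 0.43 and Cdc6 at 1.45. Okazaki fragment maturation was at 0.63 over 3 members, the MCM helicase at 0.53 over 6, fork protection at 0.49 over 3, polymerase alpha and primase at 0.44 over 4, and the clamp and its loader at 0.34 over 6. Single-strand binding, at 0.090 over 3 members, and origin recognition, at -0.055 over 6, lay nearest the median of all genes. Differences between steps were not tested. The counts at an unadjusted edgeR p under 0.05 given by step below stand beside 3.11% of all genes higher and 3.49% lower. Without NEO1- library 1 the medians of these last 2 steps changed sign, to -0.038 and 0.083.

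**Figure D1:**
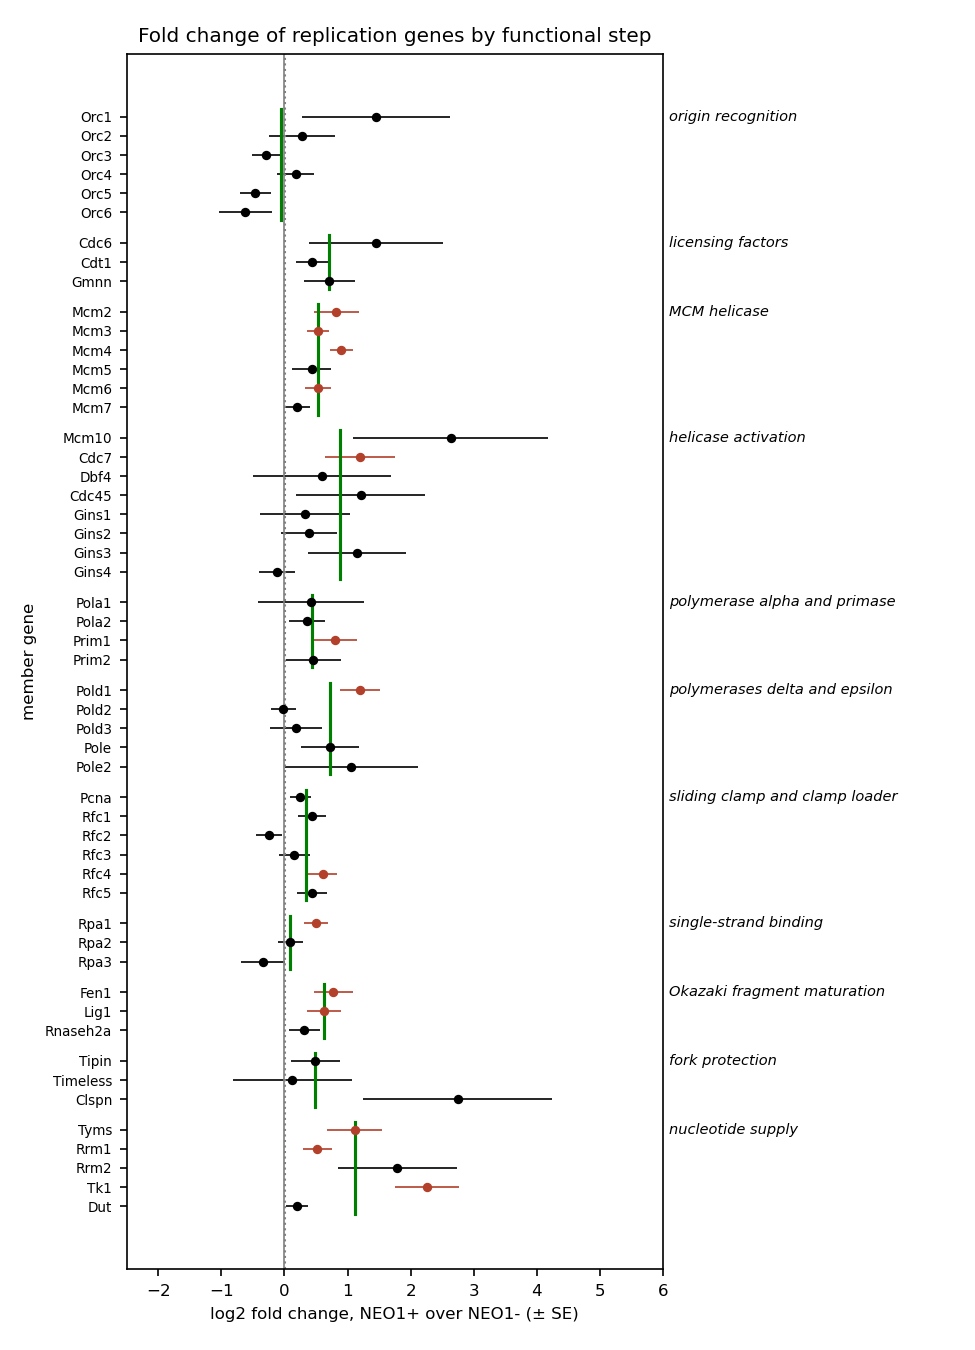
Log2 fold change of NEO1+ over NEO1- with its standard error (horizontal axis) for each of the 52 members, grouped by functional step. Red points had an unadjusted edgeR p under 0.05 (14 members), green bars are step medians, and the dotted line is the median of all genes tested at 0.01; 45 points lie above 0, and the origin recognition genes spread around 0.

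The libraries were sequenced to between 21181669 and 38945806 counts, and CPM below are counts per 1000000 counts of the effective library size after TMM normalisation. A count of 0 allows up to 3 counts, or between 0.0698 and 0.144 CPM depending on the library; the libraries carried no molecular identifiers, so this covers counting error only. Genes detected numbered 12800 to 13808 in NEO1+ and 11477 to 13147 in NEO1- libraries, and the ribosomal RNA precursor Rn45s took 27.9% to 37.7% and 30.7% to 42.4% of counts. The sorting marker Neo1 was at 64.7, 48.6, 59.5, 12.5 and 51.99 CPM in NEO1+ libraries 1 to 5 and at 4.55 to 18.9 CPM in NEO1- libraries, so NEO1+ library 4 lay in the range of the NEO1- libraries. Of 10 stem cell markers, 9 were detected in all 10 libraries, and they summed to 2012 to 2266 CPM (NEO1+) and 1946 to 2395 CPM (NEO1-). Hoxb5 was at 2.45 to 4.90 CPM (NEO1+) and 0 to 2.43 CPM (NEO1-), and transcript of Cd34, whose protein the sort selected against, at 48.5 to 114 CPM and 63.3 to 109.5 CPM. Erythroid markers (10 genes) summed to 27.1 to 376 CPM (NEO1+) and 9.73 to 217 CPM (NEO1-), with Hba-a2, Hbb-bs and Hbb-bt at 0 in all libraries. Granulocyte and monocyte markers (10 genes) summed to 492 to 3541 CPM (NEO1+) and 379.5 to 3056 CPM (NEO1-), and megakaryocyte and platelet markers (10 genes) to 236 to 298 CPM (NEO1+) and 146 to 215 CPM (NEO1-). Lymphoid markers (10 genes) summed to 40.9 to 57.8 CPM (NEO1+) and 32.4 to 83.4 CPM (NEO1-), with Pax5, Cd3e and Rag1 at 0, and stromal and endothelial markers (8 genes) to 46.0 to 82.1 CPM (NEO1+) and 36.5 to 76.7 CPM (NEO1-), with Lepr and Cdh5 at 0. NEO1+ libraries 1 and 3 and NEO1- library 3 held the highest erythroid and granulocyte and monocyte sums. The part of these marker genes in the differences below was not tested. Without these 3 libraries the median of the members was 0.54, 46 of 52 were above 0, and 6 (11.5%) were higher at an unadjusted edgeR p under 0.05, against 2.2% of all genes.

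Library by library, the members varied less among NEO1+ than among NEO1- libraries. The mean log2 CPM over the 52 members was 5.17, 5.22, 5.32, 5.56 and 5.17 in NEO1+ libraries 1 to 5 and 4.40, 3.67, 3.92, 5.02 and 4.31 in NEO1- libraries 1 to 5. By this mean, which members without counts pull down, each NEO1+ library lay above each NEO1- library. The summed CPM of the members overlapped, at 2704 to 3604 CPM in the NEO1+ and 1894 to 2714 CPM in the NEO1- libraries, with NEO1- library 1 above NEO1+ library 5. Their share of all counts overlapped too, at 0.276% to 0.404% and 0.165% to 0.277%, with NEO1- library 4 above NEO1+ library 1. Members with no count at all numbered 0 in every NEO1+ library and 3, 6, 5, 0 and 0 in NEO1- libraries 1 to 5. NEO1- libraries 1, 2 and 3 also had the fewest genes detected of all 10 libraries, at 11477, 12053 and 11593. Whether the missing counts were particular to the members was not tested. The coefficient of variation of CPM had a median over members of 22.7% in NEO1+ and 43.5% in NEO1- libraries, and was larger in NEO1- for 47 of 52 members (90.4%); over all genes the medians were 27.3% and 41.5%, with 78.2% larger in NEO1-. Genes detected also differed, with 13147 in NEO1- library 4, the highest of its group, and 11477 to 12441 in the other NEO1- libraries, and their part in the result was not tested beyond a covariate. When edgeR also fitted genes detected per library, the median of the members was 0.40, 41 of 52 were above 0, and 3 members (5.77%) were higher at an unadjusted p under 0.05 in place of 14; over all genes this share was 1.36% in place of 3.11%.

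NEO1+ library 4, whose Neo1 level was the lowest of its group, held the highest value of its group in 24 of 52 members (46.2%), against 20.2% of all genes, and the lowest in 2 members. NEO1- library 2 held the lowest value of its group in 17 of 52 members (32.7%), against 17.9% of all genes, and NEO1- library 4 in 1 member (1.92%) against 10.2%. Without NEO1+ library 4 the median of the members was 0.45, and 6 members (11.5%) in place of 14 were higher at an unadjusted edgeR p under 0.05, against 2.65% of all genes. Members higher at an unadjusted p under 0.05 numbered 9 without NEO1+ library 3 (with 1 lower) and 9 without NEO1- library 2, against 2.27% and 3.49% of all genes. They numbered 11 to 16 without 1 of the other libraries, against 2.56% to 4.45% of all genes. Without NEO1- library 4, 1 member was lower, against 3.53% of all genes. In the rest of these fits 0 were lower, against 2.71% to 3.9%.

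**Figure D2:**
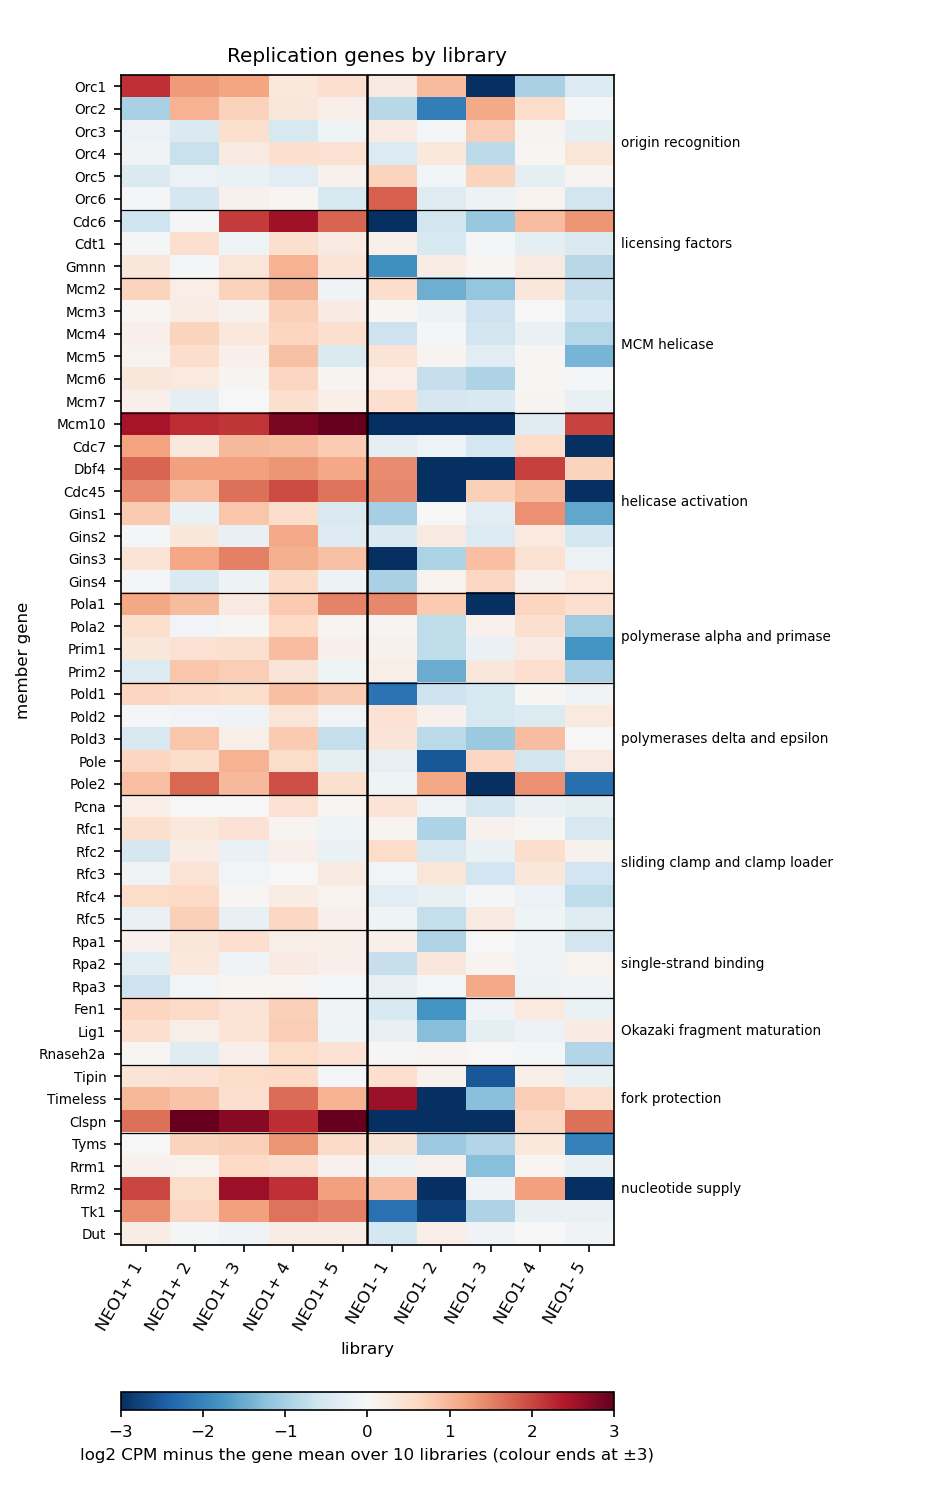
Log2 CPM of each of the 52 members (rows, grouped by step) in each library (columns), as the difference from the gene's mean over the 10 libraries; the colour scale ends at 3 log2 units on either side. NEO1+ columns are mostly above the mean. NEO1- libraries 1, 2, 3 and 5 hold the darkest blue cells, where members had few or no counts, and NEO1- library 4 holds fewer.

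**Figure D3:**
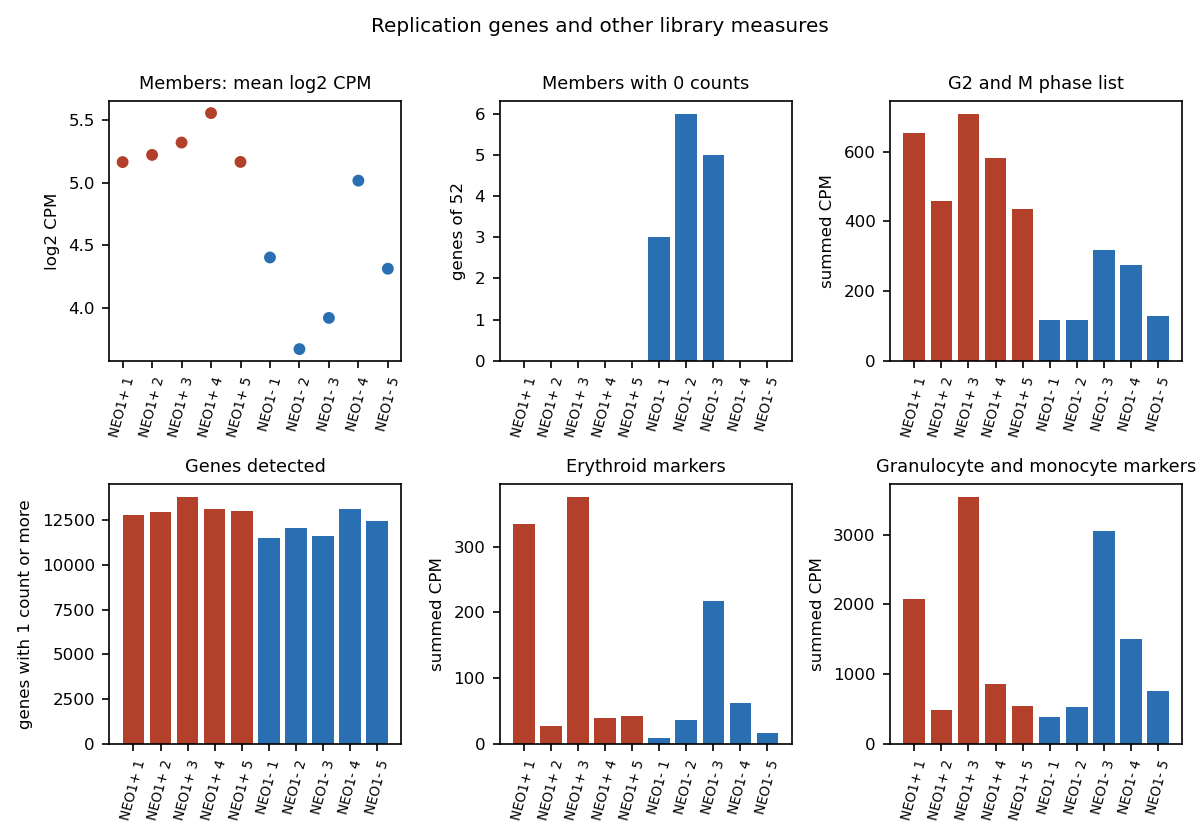
Mean log2 CPM of the 52 members (points), members with 0 counts, summed CPM of the G2 and M phase list, genes detected, and summed CPM of erythroid and of granulocyte and monocyte markers, by library (red NEO1+, blue NEO1-). The members' mean is 5.17 to 5.56 in NEO1+ and 3.67 to 5.02 in NEO1- libraries, while the erythroid and granulocyte and monocyte sums are highest in NEO1+ libraries 1 and 3 and NEO1- library 3.

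Promoter sequence was read because many replication genes are known E2F targets, and members that stood together in NEO1+ could be compared for E2F letters at their starts. RefSeq windows (GRCm38.p6) of 250 bases before to 50 after the start site were at hand for 43 members, in 52 windows; Mcm4, Gmnn, Gins1, Gins2, Gins4, Tipin, Rfc2, Pole and Prim2 had none. The words TTTCCCGC, TTTCGCGC, TTTGCCGC and TTTGGCGC were searched on both strands, overlaps allowed. At least 1 of them was present in 16 of 43 members (37.2%) and 16 of 52 windows (30.8%), against 3.96% of the windows of all genes tested and 2.26% of all windows in the table. The letters CCAAT were in 51.9% of the members' windows, against 37.6% for genes tested and 37.4% for all windows. The cell cycle homology region letters TTTGAA were in 15.4%, against 11.96% and 17.9%. E2F words were present in 4 of 5 MCM genes, both licensing factors, 3 of 4 genes of polymerases delta and epsilon and 2 of 6 origin recognition genes, and in 0 of 5 nucleotide supply genes. The median log2 fold change was 0.53 over the 16 members with a word and 0.44 over the 27 without one. Above 0 were 15 of the 16 and 23 of the 27. Orc3, at -0.29, was the member with a word that lay below 0. A match describes letters in the window and not a site that is used. Start sites of other annotations, which can differ, were not searched, so a missing word holds for these windows only.

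The 170 bases directly before the RefSeq start site are shown for 5 origin, licensing and helicase genes with an E2F word there. Tk1 is shown as well, which had none in its window but the highest log2 fold change among the nucleotide supply genes. Of these steps, Orc3 (log2 fold change -0.29) and Gins3 (1.15) also had a word there and are not shown. Gene starts differ between annotations. GENCODE M21 begins Cdc6 at chr11:98907801 and Mcm7, on the minus strand, at chr5:138172422, so both stretches lie inside those genes. The Tk1 and Orc1 stretches lie partly inside their genes, which begin there at chr11:117826092 and chr4:108579423. Capitals mark the E2F words, on either strand, and each stretch is written on the strand of its gene.
Mcm5 (GRCm38, chr8:75109339-75109508, plus strand): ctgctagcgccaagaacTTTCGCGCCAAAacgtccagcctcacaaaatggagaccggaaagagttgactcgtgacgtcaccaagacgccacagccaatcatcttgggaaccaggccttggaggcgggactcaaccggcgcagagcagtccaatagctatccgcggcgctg
Mcm6 (GRCm38, chr1:128359706-128359875, minus strand): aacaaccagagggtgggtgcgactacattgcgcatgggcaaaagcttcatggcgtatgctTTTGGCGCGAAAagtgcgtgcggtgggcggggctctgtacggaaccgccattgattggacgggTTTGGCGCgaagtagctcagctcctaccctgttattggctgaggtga
Mcm7 (GRCm38, chr5:138171884-138172053, minus strand): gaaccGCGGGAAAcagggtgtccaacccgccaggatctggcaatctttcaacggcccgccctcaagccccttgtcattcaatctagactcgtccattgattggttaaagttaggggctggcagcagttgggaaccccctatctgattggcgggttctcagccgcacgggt
Cdc6 (GRCm38, chr11:98907981-98908150, plus strand): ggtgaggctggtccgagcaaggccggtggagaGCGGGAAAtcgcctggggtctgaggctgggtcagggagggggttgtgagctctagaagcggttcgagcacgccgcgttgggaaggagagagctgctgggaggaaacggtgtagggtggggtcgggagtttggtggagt
Orc1 (GRCm38, chr4:108579284-108579453, plus strand): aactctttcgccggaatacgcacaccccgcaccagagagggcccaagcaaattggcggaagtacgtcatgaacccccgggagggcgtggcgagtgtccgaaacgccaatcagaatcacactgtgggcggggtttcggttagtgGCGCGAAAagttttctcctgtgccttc
Tk1 (GRCm38, chr11:117826015-117826184, minus strand): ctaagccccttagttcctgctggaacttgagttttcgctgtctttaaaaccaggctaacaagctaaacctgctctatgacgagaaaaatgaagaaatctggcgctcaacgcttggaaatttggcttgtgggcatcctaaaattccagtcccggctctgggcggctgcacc
In Mcm5 and in the distal match of Mcm6, words of both strands overlap and form 1 run of 12 bases. Mcm6 held 3 words before its start, while Mcm7 held 1 there and another after its start.

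**Figure D4:**
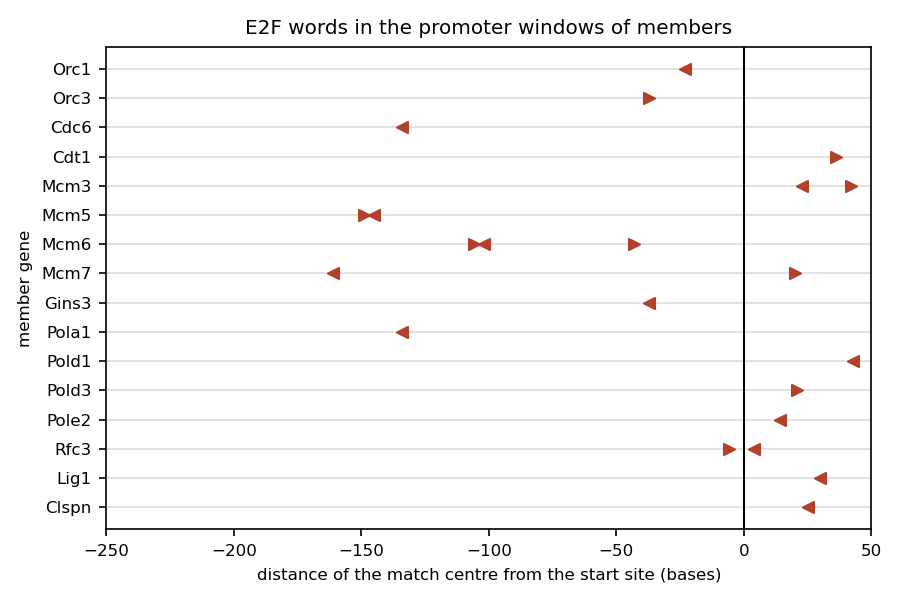
Positions of E2F words in the promoter windows of the 16 members that had one, as the distance in bases of the match centre from the RefSeq start site (vertical line). Arrowheads give the strand. The words of Mcm5, Mcm6, Cdc6 and Pola1 lie upstream, while those of Mcm3, Pold1, Pold3, Lig1 and Clspn lie after the start.

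Origin recognition, the step that marks origins for licensing, showed no common direction. Of its 6 members 3 had a log2 fold change above 0 and 3 below, from -0.62 to 1.45, and 0 had an unadjusted edgeR p under 0.05. Orc5 measured 27.6, 32.9, 32.5, 29.6 and 40.8 CPM across NEO1+ libraries 1 to 5, against 59.7, 35.3, 59.7, 30.8 and 39.4 CPM across NEO1- libraries 1 to 5. This ORC subunit had the smallest p of the step (log2 fold change -0.46, SE 0.24, edgeR adjusted p 0.807), with overlapping groups, the 2 highest values falling in NEO1- libraries 1 and 3. Orc2 stood at 9.59, 38.7, 30.6, 24.0 and 20.8 CPM in the NEO1+ and 10.6, 4.40, 41.5, 27.5 and 18.4 CPM in the NEO1- libraries, in the order 1 to 5. Both extremes of Orc2 lay in the NEO1- group (log2 fold change 0.27, SE 0.52, edgeR adjusted p 0.998); 24.0% of its exon bases are shared with Nif3l1 on the other strand. Orc1 encodes the ATPase subunit that is made afresh in each cycle, and it had the highest fold change of the step. Orc1 was at 11.5, 5.98, 5.61, 3.04 and 3.51 CPM in NEO1+ libraries 1 to 5 and at 2.96, 4.82, 0, 1.21 and 1.82 CPM in NEO1- libraries 1 to 5. Its values were low in both groups, and all 5 NEO1+ values lay above 3 CPM while 4 NEO1- values lay below it, with NEO1- library 2 among the NEO1+ values (log2 fold change 1.45, SE 1.17, edgeR adjusted p 0.931). Orc6 (log2 fold change -0.62) rested on 1 library: it was at 86.5 CPM in NEO1- library 1 and at 17.05 to 27.0 CPM in the other 9.

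Licensing factors bring the helicase to origins, and geminin, the product of Gmnn, inhibits CDT1 after licensing. All 3 had a log2 fold change above 0, and 0 of 3 had an unadjusted edgeR p under 0.05. Gmnn measured 23.7, 18.1, 23.9, 38.6 and 24.6 CPM across NEO1+ libraries 1 to 5, against 5.15, 21.5, 19.4, 22.3 and 10.4 CPM across NEO1- libraries 1 to 5. Geminin transcript was lowest in NEO1- libraries 1 and 5, and the groups overlapped (log2 fold change 0.71, SE 0.40, edgeR adjusted p 0.837). Cdc6 stood at 3.26, 4.80, 21.5, 29.6 and 16.8 CPM in the NEO1+ and 0, 3.37, 2.23, 9.59 and 12.6 CPM in the NEO1- libraries, in the order 1 to 5. CDC6 helps load the MCM ring, and its transcript ranged widely in both groups, with no count in NEO1- library 1 and the lowest NEO1+ values among the NEO1- values (log2 fold change 1.45, SE 1.06, edgeR adjusted p 0.904). Cdt1 averaged 29.9 ± 6.02 CPM (NEO1+) and 22.2 ± 4.22 CPM (NEO1-) (SD, n = 5 per group; log2 fold change 0.43).

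The MCM helicase is a ring of 6 related subunits that unwinds DNA. All 6 genes had a log2 fold change above 0, from 0.20 to 0.90, and 4 of 6 (Mcm2, Mcm3, Mcm4 and Mcm6) had an unadjusted edgeR p under 0.05. Mcm4 was at 81.0, 115, 90.4, 115 and 104 CPM in NEO1+ libraries 1 to 5 and at 47.8, 69.7, 49.9, 63.5 and 40.4 CPM in NEO1- libraries 1 to 5. Every NEO1+ value of Mcm4 exceeded every NEO1- value (log2 fold change 0.90, SE 0.18, edgeR adjusted p 0.248), and DESeq2 gave an adjusted p of 3.71e-04. Mcm3 measured 136, 153, 143, 215 and 156 CPM across NEO1+ libraries 1 to 5, against 135, 118, 85.6, 129.7 and 86.9 CPM across NEO1- libraries 1 to 5. The groups did not overlap for Mcm3 either, although NEO1- library 1 came within 2 CPM of the lowest NEO1+ library (log2 fold change 0.53, SE 0.17, edgeR adjusted p 0.534). Mcm6 stood at 320.5, 313, 267, 399 and 268 CPM in the NEO1+ and 292, 156, 132, 259.6 and 243 CPM in the NEO1- libraries, in the order 1 to 5. NEO1- library 1 lay inside the NEO1+ range and the other 4 NEO1- libraries below it, libraries 2 and 3 lowest (log2 fold change 0.53, SE 0.20, edgeR adjusted p 0.607).

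Mcm2 was at 138, 99.96, 141, 175 and 80.4 CPM in NEO1+ libraries 1 to 5 and at 125, 31.3, 38.5, 110.2 and 53.3 CPM in NEO1- libraries 1 to 5. NEO1- libraries 1 and 4 lay inside the NEO1+ range for Mcm2, and libraries 2, 3 and 5 lay below it (log2 fold change 0.82, SE 0.36, edgeR adjusted p 0.721). Mcm5 measured 68.7, 92.0, 70.7, 118 and 47.5 CPM across NEO1+ libraries 1 to 5, against 84.7, 67.7, 51.0, 66.2 and 24.2 CPM across NEO1- libraries 1 to 5. The groups overlapped over most of their range (log2 fold change 0.43, SE 0.31, edgeR adjusted p 0.900). Mcm7 stood at 140.4, 105, 126, 176 and 144 CPM in the NEO1+ and 179.6, 89.3, 91.1, 134 and 108 CPM in the NEO1- libraries, in the order 1 to 5. Mcm7 had the smallest fold change of the ring (log2 fold change 0.20, SE 0.20, edgeR adjusted p 0.967), and its highest value of all 10 libraries was in NEO1- library 1. Part of the Mcm7 exons is shared with Ap4m1 on the other strand (10.8% of its exon bases), and the Smart-seq2 protocol does not keep strand, so reads of such shared bases cannot be told apart. Summed over the 6 subunits, the level was 885, 878, 838, 1197 and 800.2 CPM in NEO1+ libraries 1 to 5, against 863, 532, 449, 764 and 556 CPM in NEO1- libraries 1 to 5. NEO1+ library 4 was the highest, and NEO1- library 1 lay among the other NEO1+ libraries.

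Within the ring, shares of counts per exon base do not depend on the scaling of libraries. Mcm6 made 27.6 ± 1.61% (NEO1+) and 27.4 ± 5.12% (NEO1-) of the summed ring transcript, and Mcm3 20.4 ± 1.64% (NEO1+) and 20.7 ± 3.02% (NEO1-) (SD, n = 5 per group). Mcm7 made 18.0 ± 2.51% (NEO1+) and 22.5 ± 2.10% (NEO1-), Mcm2 14.4 ± 3.00% (NEO1+) and 11.04 ± 3.95% (NEO1-), Mcm4 10.96 ± 1.84% (NEO1+) and 8.85 ± 2.89% (NEO1-) and Mcm5 8.69 ± 1.87% (NEO1+) and 9.50 ± 3.16% (NEO1-). Mcm6 had the highest mean share in both groups, and Mcm4 and Mcm5 the lowest; the ranges of every subunit overlapped between groups. The lengths come from GENCODE M21 exon unions, which may not be the annotation used for counting.

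**Figure D5:**
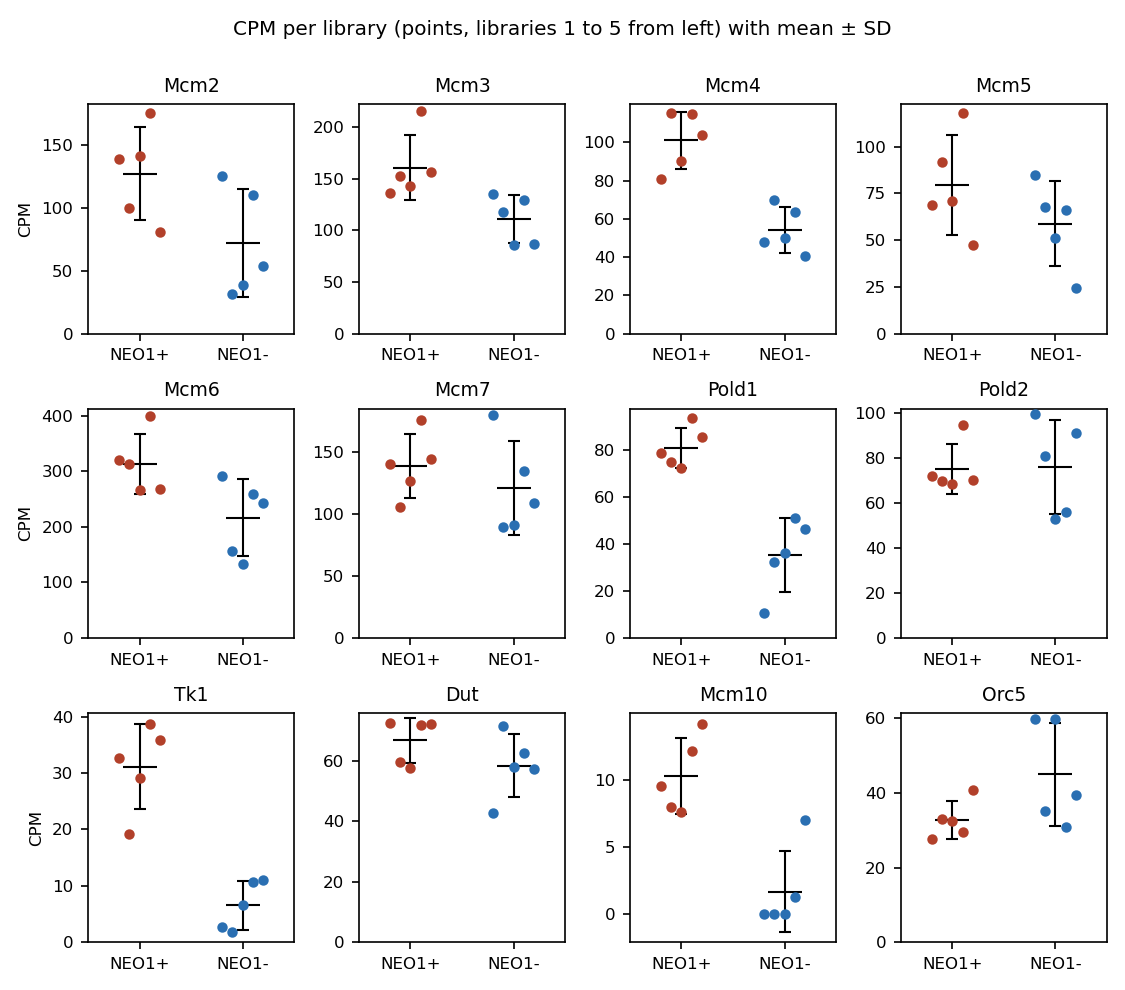
CPM in each library (points, libraries 1 to 5 from left to right) with the mean and SD for the 6 MCM genes, Pold1, Pold2, Tk1, Dut, Mcm10 and Orc5. Groups do not overlap for Mcm3, Mcm4, Pold1, Tk1 and Mcm10, while Mcm7, Pold2, Dut and Orc5 overlap.

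Helicase activation turns the loaded ring into a moving helicase. Of its 8 members 7 had a log2 fold change above 0, and 1 (Cdc7) had an unadjusted edgeR p under 0.05. Cdc7 was at 34.4, 18.4, 29.5, 28.3 and 25.4 CPM in NEO1+ libraries 1 to 5 and at 12.2, 13.7, 10.4, 21.9 and 0.991 CPM in NEO1- libraries 1 to 5. The kinase gene Cdc7 was near 0 in NEO1- library 5, and NEO1- library 4 lay inside the NEO1+ range (log2 fold change 1.201, SE 0.55, edgeR adjusted p 0.747). Gins4 measured 40.0, 30.3, 36.8, 61.1 and 36.9 CPM across NEO1+ libraries 1 to 5, against 20.8, 44.3, 63.0, 44.9 and 50.2 CPM across NEO1- libraries 1 to 5. The groups overlapped for this GINS subunit (log2 fold change -0.12, SE 0.29, edgeR adjusted p 0.998), and the sign changed without NEO1- library 3, to 0.03. Mcm10, a scaffold for helicase start, had the highest fold change of the step. Mcm10 stood at 9.54, 7.998, 7.57, 12.1 and 14.2 CPM in the NEO1+ and 0, 0, 0, 1.28 and 6.97 CPM in the NEO1- libraries, in the order 1 to 5. No count was found in NEO1- libraries 1, 2 and 3, and the NEO1- libraries that held counts stayed below all NEO1+ libraries (log2 fold change 2.64, SE 1.54, edgeR adjusted p 0.848).

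Other helicase activators had few or no counts in some NEO1- libraries. Cdc45 was at 16.8, 11.9, 19.8, 24.6 and 19.5 CPM in NEO1+ libraries 1 to 5 and at 17.2, 0, 10.4, 12.2 and 0.330 CPM in NEO1- libraries 1 to 5. The helicase subunit CDC45 was at or near 0 in NEO1- libraries 2 and 5 and inside the NEO1+ range in libraries 1 and 4 (log2 fold change 1.21, SE 1.02, edgeR adjusted p 0.939). Gins3 measured 9.64, 16.2, 20.8, 15.2 and 13.4 CPM across NEO1+ libraries 1 to 5, against 0.127, 3.74, 13.6, 9.93 and 6.44 CPM across NEO1- libraries 1 to 5. For this GINS subunit NEO1- library 1 was close to 0, and libraries 3 and 4 lay inside the NEO1+ range (log2 fold change 1.15, SE 0.78, edgeR adjusted p 0.894). Dbf4 stood at 17.5, 12.3, 12.3, 13.1 and 11.7 CPM in the NEO1+ and 13.9, 0, 0.169, 21.8 and 8.33 CPM in the NEO1- libraries, in the order 1 to 5. For Dbf4, the activator of CDC7, NEO1- libraries 2 and 3 were at or near 0 while library 4 was the highest of all 10 (log2 fold change 0.60, SE 1.09, edgeR adjusted p 0.998). Gins1 and Gins2 had log2 fold changes of 0.33 and 0.39; 70.7% of the Gins2 exon bases are shared with Gse1 on the other strand, so its counts are uncertain.

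Polymerase alpha with primase lays the primers. All 4 members had a log2 fold change above 0, between 0.36 and 0.80, and 1 (Prim1) had an unadjusted edgeR p under 0.05. Prim1 was at 36.6, 39.8, 40.4, 55.6 and 32.2 CPM in NEO1+ libraries 1 to 5 and at 31.5, 17.02, 25.3, 35.0 and 8.39 CPM in NEO1- libraries 1 to 5. For this primase subunit 4 of 5 NEO1- libraries lay below all NEO1+ libraries and NEO1- library 4 lay inside their range (log2 fold change 0.80, SE 0.34, edgeR adjusted p 0.705). Pola1 measured 36.9, 32.0, 19.7, 28.3 and 46.7 CPM across NEO1+ libraries 1 to 5, against 44.7, 28.2, 0, 26.0 and 23.6 CPM across NEO1- libraries 1 to 5. The catalytic subunit gene Pola1 had no count in NEO1- library 3, while NEO1- library 1 was near the highest NEO1+ value (log2 fold change 0.42, SE 0.84, edgeR adjusted p 0.998). Pola2 and Prim2 had log2 fold changes of 0.36 and 0.46.

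Polymerases delta and epsilon copy the lagging and the leading strand. Of 5 members 4 had a log2 fold change above 0 and 1 (Pold1) had an unadjusted edgeR p under 0.05. Pold1 stood at 78.8, 74.998, 72.3, 93.6 and 85.5 CPM in the NEO1+ and 10.7, 32.5, 36.1, 51.3 and 46.7 CPM in the NEO1- libraries, in the order 1 to 5. Every NEO1+ value of the catalytic subunit exceeded every NEO1- value (log2 fold change 1.19, SE 0.32, edgeR adjusted p 0.374), and DESeq2 gave an adjusted p of 0.0161. Pold2 was at 72.2, 69.8, 68.7, 94.9 and 70.1 CPM in NEO1+ libraries 1 to 5 and at 99.7, 81.0, 53.2, 56.0 and 91.2 CPM in NEO1- libraries 1 to 5. The accessory subunit of the same enzyme averaged 75.1 ± 11.1 CPM (NEO1+) and 76.2 ± 20.9 CPM (NEO1-) (SD, n = 5 per group; log2 fold change -0.021, SE 0.20, edgeR adjusted p 0.9997), and the sign of its fold change varied between settings. The ratio of Pold1 to Pold2 counts, which needs no scaling of libraries, was 1.09, 1.07, 1.05, 0.987 and 1.219 in NEO1+ libraries 1 to 5, against 0.108, 0.400, 0.678, 0.915 and 0.511 in NEO1- libraries 1 to 5. The ratios did not overlap; the pair is the member of smallest and of largest p in its step, so this is a description. Pole averaged 30.2 ± 9.04 CPM (NEO1+) and 18.3 ± 10.8 CPM (NEO1-), Pole2 11.3 ± 4.83 CPM (NEO1+) and 5.44 ± 5.38 CPM (NEO1-) and Pold3 44.6 ± 20.6 CPM (NEO1+) and 39.3 ± 21.8 CPM (NEO1-) (SD, n = 5 per group), with log2 fold changes of 0.72, 1.06 and 0.18.

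The sliding clamp PCNA holds polymerases on DNA, and the RFC complex loads it. Of 6 members 5 had a log2 fold change above 0, from -0.24 to 0.61, and 1 (Rfc4) had an unadjusted edgeR p under 0.05. Rfc4 measured 44.5, 46.4, 31.9, 35.6 and 32.7 CPM across NEO1+ libraries 1 to 5, against 23.9, 26.1, 30.0, 27.2 and 18.0 CPM across NEO1- libraries 1 to 5. The groups did not overlap for Rfc4, with NEO1- library 3 within 2 CPM of the lowest NEO1+ library (log2 fold change 0.61, SE 0.23, edgeR adjusted p 0.607); 13.4% of its exon bases are shared with Eif4a2 on the other strand. Rfc3 stood at 33.2, 47.4, 33.8, 36.2 and 43.6 CPM in the NEO1+ and 34.0, 46.2, 24.3, 45.3 and 24.2 CPM in the NEO1- libraries, in the order 1 to 5. Rfc3 values overlapped between the groups (log2 fold change 0.16, SE 0.25, edgeR adjusted p 0.997). Pcna was at 176, 153, 153, 212 and 157 CPM in NEO1+ libraries 1 to 5 and at 205, 142, 108, 135 and 126 CPM in NEO1- libraries 1 to 5. Pcna had its second highest value of all 10 libraries in NEO1- library 1 (log2 fold change 0.25, SE 0.17, edgeR adjusted p 0.892). Rfc1, Rfc2 and Rfc5 had log2 fold changes of 0.44, -0.24 and 0.44; Rfc2 shares 19.1% of its exon bases with Lat2 and Rfc5 15.4% with Wsb2, each on the other strand.

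Replication protein A covers single-stranded DNA. Rpa1 measured 103, 119.9, 134, 109 and 107 CPM across NEO1+ libraries 1 to 5, against 105, 50.9, 95.9, 88.5 and 64.8 CPM across NEO1- libraries 1 to 5. Among its 3 subunits only Rpa1 had an unadjusted edgeR p under 0.05 (log2 fold change 0.50, SE 0.19, edgeR adjusted p 0.621), and NEO1- library 1 lay inside the range of the NEO1+ libraries. Rpa2 stood at 65.95, 101, 75.6, 96.3 and 91.7 CPM in the NEO1+ and 50.7, 104, 86.3, 75.9 and 88.3 CPM in the NEO1- libraries, in the order 1 to 5. The NEO1- values of Rpa2 spanned the whole NEO1+ range (log2 fold change 0.090, SE 0.20, edgeR adjusted p 0.998). Rpa3 averaged 15.97 ± 2.75 CPM (NEO1+) and 20.3 ± 9.99 CPM (NEO1-) (SD, n = 5 per group; log2 fold change -0.34), the NEO1- libraries with 38.1 CPM in library 3 and 14.7 to 16.9 CPM in the other 4.

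Okazaki fragments are joined by the flap nuclease FEN1 and DNA ligase 1, after RNase H2 has cut primer RNA. All 3 members had a log2 fold change above 0, and Fen1 and Lig1 had an unadjusted edgeR p under 0.05. Fen1 was at 84.9, 81.1, 72.0, 90.1 and 50.4 CPM in NEO1+ libraries 1 to 5 and at 39.8, 15.8, 50.9, 67.2 and 47.4 CPM in NEO1- libraries 1 to 5. NEO1- library 2 was lowest, and NEO1- libraries 3 and 4 lay inside the NEO1+ range (log2 fold change 0.77, SE 0.31, edgeR adjusted p 0.633). Most Fen1 exon bases (78.8%) are shared with an antisense transcript, Gm10143, so its counts are uncertain. Lig1 measured 55.0, 43.7, 51.2, 64.3 and 35.4 CPM across NEO1+ libraries 1 to 5, against 33.4, 15.8, 31.6, 34.5 and 46.1 CPM across NEO1- libraries 1 to 5. For Lig1 4 of 5 NEO1- libraries lay below all NEO1+ libraries (log2 fold change 0.63, SE 0.27, edgeR adjusted p 0.716). Rnaseh2a stood at 39.4, 30.1, 42.9, 56.0 and 51.9 CPM in the NEO1+ and 39.3, 40.8, 38.7, 37.3 and 21.01 CPM in the NEO1- libraries, in the order 1 to 5. Rnaseh2a was near 40 CPM in 4 NEO1- libraries and low in library 5 (log2 fold change 0.32, SE 0.24, edgeR adjusted p 0.916).

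Fork protection proteins travel with the fork and signal to the checkpoint. All 3 members had a log2 fold change above 0 and 0 had an unadjusted edgeR p under 0.05. Clspn was at 6.24, 16.4, 13.2, 9.27 and 17.1 CPM in NEO1+ libraries 1 to 5 and at 0, 0, 0, 3.01 and 6.24 CPM in NEO1- libraries 1 to 5. Claspin transcript had no count in NEO1- libraries 1, 2 and 3 and lay in the NEO1+ range in library 5, which alone made the groups overlap (log2 fold change 2.74, SE 1.496, edgeR adjusted p 0.823). Timeless measured 25.1, 22.7, 17.8, 40.5 and 26.1 CPM across NEO1+ libraries 1 to 5, against 76.7, 0, 5.28, 21.1 and 17.9 CPM across NEO1- libraries 1 to 5. Timeless held both the highest and the lowest value in NEO1- libraries 1 and 2 (log2 fold change 0.13, SE 0.94, edgeR adjusted p 0.998), and without NEO1- library 1 its log2 fold change was 1.25. Tipin stood at 70.5, 73.7, 78.8, 81.2 and 53.2 CPM in the NEO1+ and 77.3, 59.3, 9.17, 62.5 and 46.5 CPM in the NEO1- libraries, in the order 1 to 5. Tipin, which encodes the partner of TIMELESS, was low in NEO1- library 3 (log2 fold change 0.49, SE 0.39, edgeR adjusted p 0.930).

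Nucleotide supply feeds the fork through thymidylate synthase (Tyms), ribonucleotide reductase (Rrm1 and Rrm2), thymidine kinase 1 (Tk1) and dUTPase (Dut). All 5 had a log2 fold change above 0, and Tk1, Tyms and Rrm1 had an unadjusted edgeR p under 0.05. Tk1 was at 32.7, 19.2, 29.2, 38.9 and 35.9 CPM in NEO1+ libraries 1 to 5 and at 2.61, 1.73, 6.56, 10.7 and 10.9 CPM in NEO1- libraries 1 to 5. Every NEO1+ value of the salvage enzyme Tk1 exceeded every NEO1- value (log2 fold change 2.26, SE 0.50, edgeR adjusted p 0.248), and DESeq2 gave an adjusted p of 7.17e-04. Dut measured 72.5, 59.6, 57.7, 71.7 and 72.0 CPM across NEO1+ libraries 1 to 5, against 42.6, 71.5, 57.8, 62.6 and 57.1 CPM across NEO1- libraries 1 to 5. Dut values overlapped (log2 fold change 0.19, SE 0.17, edgeR adjusted p 0.952). The ratio of Tk1 to Dut counts was 0.451, 0.322, 0.506, 0.542 and 0.499 in NEO1+ libraries 1 to 5, against 0.0611, 0.0242, 0.113, 0.171 and 0.191 in NEO1- libraries 1 to 5. These ratios did not overlap either, and the pair was again that of smallest and largest p. Of the 11 such pairs, 1 in each step, these 2 had ratios that did not overlap between groups, and the other 9 overlapped.

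Rrm2 stood at 47.3, 17.4, 70.8, 54.0 and 27.8 CPM in the NEO1+ and 22.4, 0, 11.1, 27.96 and 1.39 CPM in the NEO1- libraries, in the order 1 to 5. Rrm2, the S phase subunit of ribonucleotide reductase, was at or near 0 in NEO1- libraries 2 and 5 and inside the NEO1+ range in libraries 1 and 4 (log2 fold change 1.79, SE 0.95, edgeR adjusted p 0.815). Rrm1 was at 87.7, 86.3, 123, 112 and 88.3 CPM in NEO1+ libraries 1 to 5 and at 72.6, 87.8, 33.9, 83.3 and 69.0 CPM in NEO1- libraries 1 to 5. Its partner Rrm1 was lowest in NEO1- library 3, and NEO1- library 2 alone lay inside the NEO1+ range (log2 fold change 0.52, SE 0.23, edgeR adjusted p 0.721). Tyms measured 22.7, 36.2, 37.5, 57.2 and 34.1 CPM across NEO1+ libraries 1 to 5, against 29.7, 10.7, 12.3, 28.4 and 5.52 CPM across NEO1- libraries 1 to 5. Tyms was low in NEO1- libraries 2, 3 and 5, with libraries 1 and 4 inside the NEO1+ range (log2 fold change 1.12, SE 0.44, edgeR adjusted p 0.633).

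The least abundant members had the highest median fold change and the largest errors, while the more abundant ranges hardly differed. Among 14 members with a mean under 20 CPM over all libraries the median log2 fold change was 1.18 with a median SE of 0.90, and 2 had an unadjusted edgeR p under 0.05. Among 22 members between 20 and 60 CPM the median was 0.42 (median SE 0.31, 6 under 0.05), and among 16 members above 60 CPM it was 0.43 (median SE 0.20, 6 under 0.05). All genes tested had medians of 0.06, 0.00 and -0.01 in the same ranges. Per length, Pcna was the most abundant member in both groups, at 112 ± 16.8 (NEO1+) and 94.3 ± 24.2 (NEO1-) CPM per kilobase of exon, followed by Mcm6 at 71.7 ± 12.3 (NEO1+) and 49.5 ± 15.7 (NEO1-) (SD, n = 5 per group). Orc1, Mcm10 and Clspn were the lowest in both groups, at 1.96 ± 1.11 (NEO1+) and 0.717 ± 0.607 (NEO1-), 2.08 ± 0.570 (NEO1+) and 0.333 ± 0.611 (NEO1-) and 2.47 ± 0.923 (NEO1+) and 0.368 ± 0.553 (NEO1-) CPM per kilobase. Rrm1 was above Rrm2 per kilobase in both groups, at 24.9 ± 4.20 (NEO1+) and 17.3 ± 5.31 (NEO1-) against 19.8 ± 9.68 (NEO1+) and 5.73 ± 5.67 (NEO1-), a gap within the spread in NEO1+.

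Genes around the fork outside the member list were read from fixed lists. Over all genes tested, 3.11% were higher and 3.49% lower at an unadjusted edgeR p under 0.05. DESeq2 called 0.557% of all genes higher and 0.426% lower. Of 30 further replication genes 23 had a log2 fold change above 0 and 7 below, with a median of 0.23; 0 passed the edgeR adjustment, 2 were higher at an unadjusted p under 0.05, 0 lower, and DESeq2 called 0. The smallest p was that of Asf1b, a histone chaperone gene (log2 fold change 1.59, SE 0.50, edgeR adjusted p 0.529). Of 18 E2F and RB genes 17 were above 0, with a median of 0.55; 0 passed in edgeR, 3 were higher at an unadjusted p under 0.05, and DESeq2 called 1. That 1 was Tfdp1, which encodes the DNA-binding partner of E2F factors (log2 fold change 0.58, SE 0.15, edgeR adjusted p 0.368). Of 9 replication checkpoint genes 4 were above 0 and 5 below, with a median of -0.25; 0 passed in edgeR, 1 was lower at an unadjusted p under 0.05 (Etaa1, an activator of ATR, log2 fold change -0.69, SE 0.29, edgeR adjusted p 0.705) and DESeq2 called 0. Of 16 other nucleotide synthesis genes 11 were above 0, with a median of 0.26; 0 passed in edgeR, 1 was higher at an unadjusted p under 0.05 (Paics, of purine synthesis, log2 fold change 0.70, SE 0.28, edgeR adjusted p 0.637) and DESeq2 called 0.

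Genes of G2 and M phase had the largest median of these lists, at 1.71 over 18 genes, all above 0. In edgeR 0 passed, and 8 were higher at an unadjusted p under 0.05, against 3.11% of all genes. DESeq2 called 2 higher, against 0.557% of all genes. The smallest p was that of Cdk1, the mitotic kinase (log2 fold change 1.69, SE 0.31, edgeR adjusted p 0.155). Their summed level was 653, 459, 709, 580.0 and 436 CPM in NEO1+ libraries 1 to 5, against 117, 118, 317, 274 and 129 CPM in NEO1- libraries 1 to 5. NEO1- library 3 had the highest sum of its group here, while its mean over the replication members was the second lowest. The MCM sum of NEO1- library 1 (863 CPM) was the highest of its group, while its G2 and M sum was the lowest. The order of the NEO1- libraries thus differed between the lists.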

How the data were processed

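RNA of 250 to 500 sorted cells per library was amplified with Smart-seq2 (oligo-dT priming, 18 PCR cycles, no strand kept), per the labels' protocols. Gene counts of 10 libraries and a table of log2 values were deposited by the authors; the deposited log2 values equal log2(count / size factor + 1) of the same counts. The submitters' processing notes name bcl2fastq 2.18, STAR 2.4, DESeq2 1.22.2 and mm10, with no order; the counting tool and annotation are not given in the sources used here. All 24544 rows named a gene, and 8860 held no count.

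The main test was edgeR 4.0.16 in R 4.3.3 (quasi-likelihood, filterByExpr, TMM, Benjamini-Hochberg over 12203 genes, threshold 0.05), fitted on all 10 libraries with group as the only term; log2 fold changes are NEO1+ over NEO1-, and log2 CPM used a prior count of 2. Common dispersion gave a biological coefficient of variation of 0.717. The SE is the absolute log2 fold change divided by the root of the F statistic. The alternatives were DESeq2 1.42.0, limma 3.58.1 on the deposited log2 values, other scaling and filters, a covariate, a replicate block and leaving out libraries. Library pairs within a group differed by more than counting noise (chi-square per degree of freedom at least 89.8), so no library repeated another. All were counted separately. Because PCR also adds spread, this cannot show that the libraries came from separate pools of cells. Scripts were tested on simulated data.

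Members and lists were chosen with earlier results of these data known. Values in every library were to be given for Mcm2 to Mcm7 and for the members of smallest and largest p in each step; other members named were chosen after their values were seen. Exon lengths and overlaps came from GENCODE M21, and promoter windows from RefSeq.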

Additional observations from a re-analysis of the deposited data

Results flagged for a closer look

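In 82 groups of 5 values, 6 had an extreme library apart from the next by more than 0.71 of the range of the group (Dixon's criterion). The groups were members with values in every library by the rule, and step sums. Total counts, genes detected, the Rn45s share and the members' mean log2 CPM were included too. Chance gives about 1 in 20, or 4.1, for independent groups, and these share genes and libraries. Cdc7 in NEO1- library 5 was at a log2 CPM of 0.077, with the next at 3.38. Pola1 in NEO1- library 3 had no count and a log2 CPM of -3.98, with the next at 4.56. Pold2 in NEO1+ library 4 was at 6.57, with the next at 6.18. Rnaseh2a in NEO1- library 5 was at 4.40, with the next at 5.22. The summed MCM helicase level of NEO1+ library 4 was 1197 CPM, with the next at 885 CPM. The summed level of the single-strand binding genes in NEO1- library 3 was 220.4 CPM, with the next at 180.0 CPM.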

How the results depend on the processing

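All 8 fits of the full set of libraries other than the main one, and each of the 10 fits without 1 library, kept the median log2 fold change of the 52 members above 0; without 1 library it ranged from 0.42 to 0.60. Over all genes, calls at an adjusted p under 0.05 numbered 0 in edgeR, 120 in DESeq2, 2 in edgeR with no filter, 1 in limma-trend and 0 to 1 when 1 library was left out (1 without NEO1- library 1). Among members DESeq2 called 3. Whether the replicate numbers pair the libraries was not stated, and weak correlations cannot decide it. Same-numbered libraries had correlations of deviations of 0.0040 to 0.0359, all above 0. Of 5 NEO1+ libraries, 3 correlated best with their own number. With the number as a replicate block, edgeR called 0 genes, and 17 members were higher at an unadjusted p under 0.05 (32.7%, against 4.29% of all genes); DESeq2 with the block called 695 genes and 12 members (23.1%), all higher, against 4.28% of all genes higher. The block gave a median of 0.57 for the members and of 1.66 (edgeR) or 1.65 (DESeq2) for helicase activation, and Pold2 turned to 0.012 and 0.0067. Limma-trend gave 1.87 for helicase activation, 2.20 for fork protection and 0.0088 for Pold2; it moved the median of all genes to 0.11 and the block moved it to 0.10. With genes detected as a covariate, origin recognition was at 0.0031, Orc5 at 0.017, Cdc6 at -0.63, Pold2 at 0.16 and Clspn at -0.015. Leaving out 1 library gave ranges that crossed 0 for origin recognition (-0.16 to 0.083) and for single-strand binding and its median gene Rpa2 (-0.038 to 0.19), both changing sign without NEO1- library 1. The same held for Pold2 (-0.13 to 0.095, above 0 in 6 of 10 cases), Timeless (-0.19 to 1.25, below 0 without NEO1+ library 4, NEO1- library 2 and NEO1- library 3) and Gins4 (-0.31 to 0.034, above 0 without NEO1- library 3). Without the 3 libraries of highest erythroid marker sums, an alternative chosen after seeing the data, 12 members had NEO1+ ranges above the NEO1- ranges in the smaller groups, where this held for 4.38% of all genes, and Gins4 was at 0.095. The cause of these shifts was not tested. With 5 libraries a group and this spread, the 14 members under 20 CPM had a median SE of 0.90. A change of that size would equal 1 SE for a member at this median. The power to detect it was not computed. Of the 14, 2 had an unadjusted edgeR p under 0.05, both higher, against 1.72% of all genes in this range.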
